A study of Homo sapiens with 6 samples.

Results

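The transcripts described here encode the 8 enzymes GFPT1, GFPT2, GNPNAT1, PGM3, UAP1, NAGK, OGT and OGA, which make UDP-N-acetylglucosamine (UDP-GlcNAc) and attach it to, or remove it from, intracellular proteins. They were taken by symbol from a count table with 24976 gene symbols or unnamed loci, and each of the 8 had a single row there. RNA came from LN229, an established line of human glioblastoma cells, in 6 libraries. In the 3 knockdown libraries a small interfering RNA (siRNA) against GDH1 had been transfected with a lipofectamine reagent for 24 h. The 3 control libraries are labelled wild type, and their titles and the protocol also carry the abbreviation NC, and no label states if these dishes were transfected. How many siRNA sequences were used is not stated either, and all cells are of 1 line. All values are relative levels in a pooled culture, where fewer expressing cells and less RNA per cell cannot be told apart. The 8 genes were chosen with the knockdown-against-control differences of these libraries known, so their own differences are given below as a description, and nothing is inferred from how many passed a threshold.

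The hexosamine pathway diverts fructose-6-phosphate from glycolysis. Glutamine-fructose-6-phosphate transaminase, encoded by GFPT1 and its paralog GFPT2, takes the amide nitrogen of glutamine and releases glutamate. GNPNAT1 then acetylates glucosamine-6-phosphate, PGM3 moves the phosphate, and UAP1 joins the sugar to UDP, while NAGK salvages free N-acetylglucosamine. OGT uses UDP-GlcNAc to modify serine and threonine of nuclear, cytosolic and mitochondrial proteins, and OGA removes the modification. GDH1, glutamate dehydrogenase 1, consumes glutamate, the product of the GFPT reaction, which places the pathway beside the targeted enzyme.

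The first step of the pathway is encoded at 2 loci whose promoters differ in their letters, and these are shown because these paralogs differed in the size of their change. The 250 bases before the annotated start (RefSeq, GRCh38.p14) lie at chr2:69387228-69387477 on the minus strand for GFPT1 and at chr5:180353337-180353586 on the minus strand for GFPT2. Capitals mark the core ACGTG, the GC box GGGCGG and the TATA letters TATAA on either strand.
GFPT1: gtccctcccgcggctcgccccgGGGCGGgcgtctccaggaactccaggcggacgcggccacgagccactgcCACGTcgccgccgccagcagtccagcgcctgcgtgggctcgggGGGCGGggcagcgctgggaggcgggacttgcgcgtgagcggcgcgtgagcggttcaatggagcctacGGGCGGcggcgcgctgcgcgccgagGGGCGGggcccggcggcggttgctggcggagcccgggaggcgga
GFPT2: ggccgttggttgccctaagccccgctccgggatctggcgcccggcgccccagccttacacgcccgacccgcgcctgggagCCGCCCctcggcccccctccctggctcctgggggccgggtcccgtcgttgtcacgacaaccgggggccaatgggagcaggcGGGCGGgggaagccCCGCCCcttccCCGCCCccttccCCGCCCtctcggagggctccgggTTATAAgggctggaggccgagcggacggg

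Both stretches were rich in G and C (80.0% for GFPT1 and 76.8% for GFPT2), and GGGCGG, the letters of a GC box, occurred 4 times in GFPT1 and 5 times in GFPT2. The TATAA letters were present in GFPT2 alone of the 8 genes, starting at position -29 on one strand and -28 on the other, where -1 is the base before the start. Among 27305 promoter windows of 300 bases (250 before and 50 after the start), 21.3% held TATAA and 44.4% held GGGCGG, against 1 and 7 of the 8 genes. ACGTG, the core letters shared by sites of several stress-responsive factors, was found in the windows of 3 of the 8 genes and in 21.5% of all windows. The 3 stretches around it are given with the match in capitals, for GFPT1 at chr2:69387392-69387416 (minus strand), GNPNAT1 at chr14:52791565-52791589 (minus strand) and UAP1 at chr1:162561540-162561564 (plus strand).
GFPT1: gagccactgcCACGTcgccgccgcc
GNPNAT1: ttggcgctgcCACGTctgggccgcg
UAP1: cccggcgctgACGTGtctgggcggt

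The match began at position -179 in GFPT1, and past the start in GNPNAT1 (29) and UAP1 (20). In UAP1 it overlapped TGACGT, which 8.30% of all windows held and no other of the 8 genes. CCAAT was found in GFPT2, PGM3, UAP1 and NAGK, 4 of 8 against 35.8% of all windows. PGM3, UAP1 and NAGK have further annotated starts, and 1 further window of PGM3 and both of UAP1 also held ACGTG. The further UAP1 window at chr1:162561472-162561771 overlaps the first and holds the same match, which lies before the start of that further window. The motifs were chosen with the sequences and the expression values in view, and a match is a string of letters, not a shown binding site.

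As a check of the knockdown, GLUD1, the gene of GDH1, had 88.3, 85.5 and 85.7 CPM (a gene's counts relative to its library's total, after TMM scaling) in controls and 20.9, 26.2 and 26.7 in knockdown libraries. That left 28.4% of the control mean (log2 fold change -1.82, SE 0.10, edgeR's quasi-likelihood test adjusted p = 7.46e-07, 3 libraries each), and permuting the 6 libraries exactly (two-sided, log2 CPM) gave p = 0.1, the lowest value possible with 3 against 3. Library totals ran from 31201100 to 35619614 counts. Of 15638 tested genes 4085 (26.1%) passed an adjusted p of 0.05, 2037 higher and 2048 lower. Genes with GC-poor transcripts were higher than GC-rich ones: with genes ranked by GC and cut into 5 equal bins, the median log2 fold change was 0.15 in the lowest bin and -0.28 in the highest. Of 8 glial and glioma markers VIM, NES, CD44, S100B and SOX2 were abundant, OLIG2 (9.55 CPM in controls) and SOX9 (2.55) were low, and GFAP was near 0 (0.334). Their sum was 5763 to 5937 CPM in controls and 6103 to 7028 CPM in the knockdown. VIM, CD44 and SOX2 passed as higher (log2 fold changes 0.21, 0.44 and 0.78) and S100B and OLIG2 as lower (-1.13 and -1.10). The summed leukocyte markers went from 13.8 to 17.1 CPM in controls to 26.8 to 29.6 CPM in the knockdown, nearly all of it CD68, while PTPRC, CD3E and CD14 were at or near 0, and the part of glial, leukocyte and neuronal markers in other results was not tested. Epithelial and endothelial markers summed to at most 1.23 and 3.05 CPM in any library. The neuronal genes SNAP25 and SYT1 were present, and the neuronal sum was 50.6 to 53.9 CPM in controls and 39.6 to 49.4 CPM in the knockdown.

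Both genes of the committed, glutamine-using step were higher in the knockdown. GFPT2 had 6.23, 6.46 and 7.0 CPM in controls and 13.1, 13.4 and 11.3 CPM in knockdown libraries. Every knockdown library thus lay above every control, and the mean went from 6.56 ± 0.397 to 12.6 ± 1.14 CPM (SD, n = 3 each), 191.6% of control. The log2 fold change was 0.94 (SE 0.13), the largest of the 8. GFPT2 rested on the fewest reads, 203 to 230 counts per control library and 394 to 456 per knockdown library.

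GFPT1, the more abundant paralog, had 68.1, 71.6 and 66.1 CPM in controls and 78.8, 83.7 and 88.0 CPM in the knockdown. The groups did not overlap, although the lowest knockdown library stood only a little above the highest control. Its mean was 121.7% of control, a log2 fold change of 0.28 (SE 0.076). Without control replicate 1 or 3, or knockdown replicate 2, GFPT1 no longer passed the test over all genes, at log2 fold changes of 0.28, 0.26 and 0.28.

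Because the paralogs moved by different amounts, the make-up of the GFPT transcripts shifted. Per kilobase of the longest coding transcript, GFPT2 made up 20.5, 20.2 and 23.0% of the GFPT1 and GFPT2 sum in controls and 31.9, 31.0 and 26.5% in the knockdown libraries. Each knockdown library was above each control, with the narrowest gap between control replicate 3 and knockdown replicate 3. The group means were 21.2 ± 1.5% and 29.8 ± 2.89%. In counts without length scaling the shares were 8.74 ± 0.722% and 13.1 ± 1.55%. The sum of both, per kilobase, was 10.0 ± 0.265 CPM in controls and 13.7 ± 0.342 CPM in the knockdown.

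**Figure D1:**
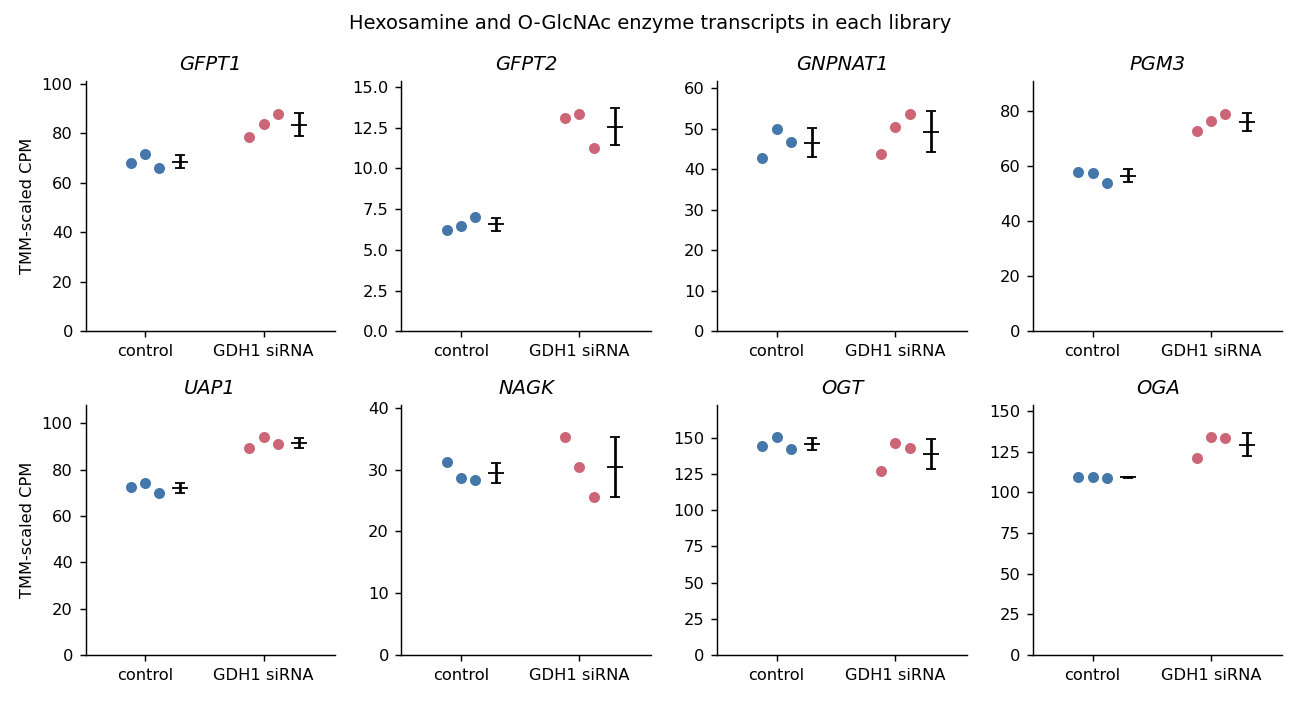
TMM-scaled CPM (vertical axes from 0, one scale per gene) of the 8 enzyme genes in the 3 control and 3 GDH1 siRNA libraries, with points for libraries and a bar for the mean ± SD. GFPT1, GFPT2, PGM3, UAP1 and OGA show no overlap between groups, and GNPNAT1, NAGK and OGT overlap.

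The later steps of synthesis differed among themselves. PGM3, the phosphoacetylglucosamine mutase, had 58.1, 57.7 and 54.0 CPM in controls and 72.8, 76.5 and 79.1 CPM in the knockdown. UAP1, the pyrophosphorylase that forms UDP-GlcNAc, had 72.6, 74.0 and 69.9 CPM in controls and 89.5, 93.9 and 91.0 CPM in the knockdown. For both genes the groups were well apart, with means at 134.5% and 126.7% of control. Their log2 fold changes were 0.43 (SE 0.075) for PGM3 and 0.34 (SE 0.070) for UAP1. The PGM3 locus overlaps DOP1A and RWDD2A, and no source used here gives the strand setting of the counting, so reads in overlapping stretches cannot be assigned with certainty.

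GNPNAT1, the acetyltransferase between GFPT and PGM3, had 42.8, 50.0 and 46.6 CPM in controls and 43.6, 50.3 and 53.7 CPM in the knockdown. These ranges overlapped for most of their length, and the log2 fold change of 0.082 (SE 0.098) was within its error. NAGK, the salvage kinase, had 31.3, 28.7 and 28.4 CPM in controls and 35.2, 30.4 and 25.6 CPM in the knockdown. The knockdown libraries of NAGK enclosed the controls on both sides (log2 fold change 0.046, SE 0.12), with an SD of 4.84 CPM against 1.59 CPM in controls.

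The enzymes that add and remove O-GlcNAc did not move alike. OGA, the hydrolase, had 109.1, 109.7 and 108.8 CPM in controls and 120.9, 133.7 and 133.3 CPM in the knockdown. All knockdown libraries were above the controls, which themselves lay within 1 CPM of each other, and the log2 fold change was 0.24 (SE 0.070). OGT, the transferase, had 144.5, 150.3 and 142.5 CPM in controls and 126.9, 146.2 and 143.1 CPM in the knockdown. Knockdown replicate 1 was below the controls and the other two lay among them, for a log2 fold change of -0.071 (SE 0.075). OGA no longer passed the test over all genes without any 1 control (log2 fold changes 0.25, 0.25 and 0.25) or without knockdown replicate 2 (0.22).

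The ratio of OGA to OGT, which does not depend on how libraries are scaled, was higher in each knockdown library than in each control. Per kilobase it was 0.800, 0.773 and 0.809 in controls and 1.01, 0.969 and 0.987 in the knockdown. The means were 0.794 (SD 0.0187) in controls and 0.988 (SD 0.0205) in the knockdown. In counts the means were 0.749 and 0.933. This ratio and the GFPT2 share above use genes chosen with their differences known, so both are descriptions only. How often ratios of other gene pairs differ in this way was not tested.

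**Figure D2:**
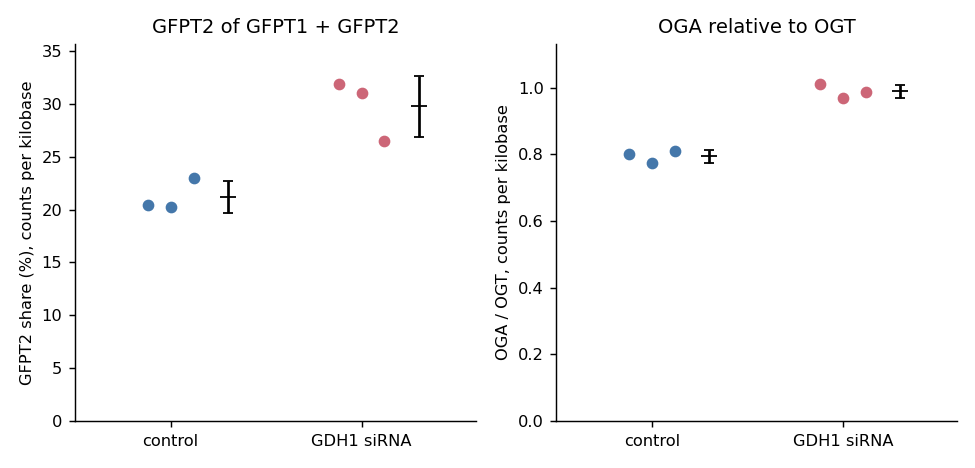
GFPT2 as a percentage of GFPT1 plus GFPT2 (left) and OGA relative to OGT (right), both from counts per kilobase and with axes from 0, in each control and GDH1 siRNA library, with points for libraries and a bar for the mean ± SD. In both panels the 3 knockdown libraries lie above the 3 controls.

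In sum over the 8 genes, 5 passed an adjusted p of 0.05 as higher and 0 as lower in edgeR's quasi-likelihood test over all genes, where 13.0% of all tested genes passed as higher and 13.1% as lower. Over both directions 26.1% passed. The count lower was also 0 at an unadjusted p of 0.05, in DESeq2 and in limma-voom. The same 5 had no overlap between groups, with the knockdown above, as did 21.6% of tested genes (42.0% in either direction). The median log2 fold change was 0.26 over the 8 genes and -0.0033 over all tested genes. These genes were selected with that contrast known, and the counts describe them only. Leaving out control replicate 1 or 3, or knockdown replicate 2, brought the number higher to 3, and leaving out control replicate 2 brought it to 4. Among all tested genes the number higher also went down, from 2037 to 1163, 1161 and 1190 in the fits with 3. It was 1432 in the fit with 4.

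Over all tested genes the log2 fold change moved with GC content, so the values of the 8 genes are also given after a correction. GFPT1, GNPNAT1 and PGM3 were in the lowest GC bin, UAP1, OGT and OGA in the next, whose median log2 fold change was 0.11, and GFPT2 and NAGK in bin 4, whose median was -0.12. Once GC and length trends had been subtracted library by library, the log2 fold changes were 0.99 for GFPT2, 0.30 for PGM3, 0.27 for UAP1, 0.18 for GFPT1 and 0.16 for OGA, and each of the 5 still passed. GNPNAT1 turned from 0.082 to -0.050 and did not pass. OGT went to -0.17 (SE 0.041) and then passed as lower, so that 1 of the 8 was lower in that fit. More genes passed there among all tested genes too, 3001 higher and 2387 lower, beside 2037 and 2048 without the correction.

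**Figure D3:**
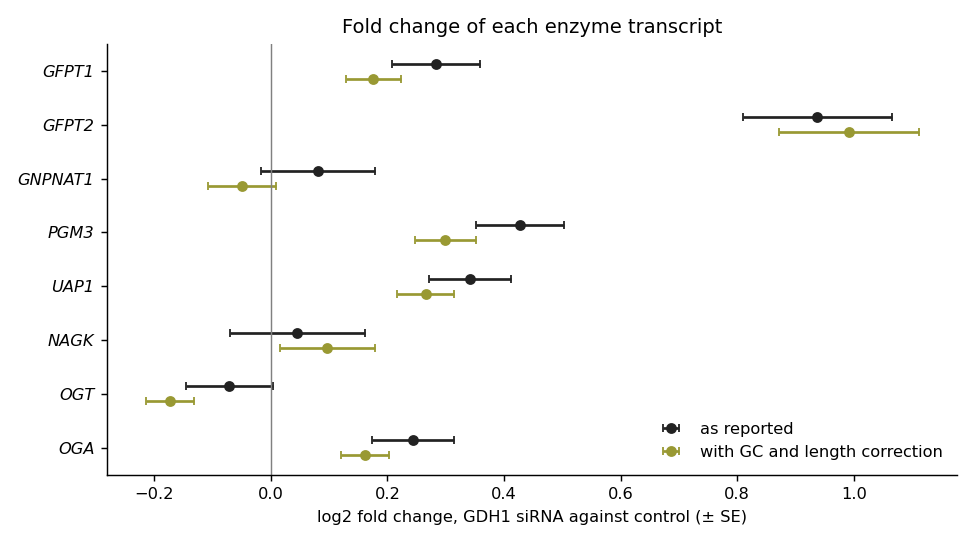
Log2 fold change of GDH1 siRNA against control for each enzyme gene (horizontal axis, points with SE bars), as reported and after correction for GC content and transcript length. GFPT2 stands farthest from 0 at 0.94 and 0.99, and GNPNAT1 and OGT are the genes whose sign or call depends on the correction.

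Between genes, levels were compared per kilobase of the longest coding transcript. In controls the order was UAP1 (30.4 ± 0.896 CPM per kilobase), OGT (26.7 ± 0.742), OGA (21.2 ± 0.0851), NAGK (12.6 ± 0.678), GNPNAT1 (12.04 ± 0.928), PGM3 (9.26 ± 0.368), GFPT1 (7.88 ± 0.316) and GFPT2 (2.12 ± 0.128). Only NAGK and GNPNAT1 overlapped their neighbour there. The 2 genes of the committed step were thus the lowest of the 8 on this scale, which depends on the transcript chosen. In the knockdown the order of the means was the same, but OGT (25.4 ± 1.90) and OGA (25.1 ± 1.41) now overlapped, as did NAGK, GNPNAT1 and PGM3 at 13.0 ± 2.06, 12.7 ± 1.32 and 12.5 ± 0.521.

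Profiles were also compared with those of 10202 other genes with a mean log2 CPM of at least 3 and an ordinary symbol, by the root mean square difference of mean-centred log2 CPM over the 6 libraries. Among the genes nearest to GFPT2 were JAG1, a Notch ligand gene (difference 0.057), and MGLL, which encodes a monoglyceride lipase (0.071). Nearest to GFPT1 were SEPTIN11, a septin gene (0.0093), TFRC, the transferrin receptor gene (0.014), and ARID2, a chromatin remodelling subunit gene (0.014). For OGT they were CFLAR (0.019), GPBP1L1 (0.020) and BECN1 (0.021), and for OGA VPS37A (0.017), MTMR12 (0.018) and DNA2 (0.019).

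Genes around the pathway were grouped by function into 9 lists of 58 genes, of which 56 were tested, while HAS1 had no counts and MGAT3 too few. Of these, 5 were higher and 11 lower, 8.93% and 19.6%, beside 13.0% and 13.1% of all tested genes. The median log2 fold change was 0.038. Without control replicate 1 or 3 the number lower was 3, and without knockdown replicate 2 it was 4. The number higher was 11 without knockdown replicate 1, 8 without knockdown replicate 3 and 12 with the GC and length correction. The calls over all tested genes moved in these fits as well. Genes lower went from 2048 to 1053 and 1069 without control replicate 1 or 3, and to 1135 without knockdown replicate 2. Genes higher went from 2037 to 2978 without knockdown replicate 1, 1767 without knockdown replicate 3 and 3001 with the correction.

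The list for breakdown and recycling of amino sugars had 4 lower (50.0%, beside 13.1% of all tested genes) and 0 higher of 8 tested in edgeR (1 higher at an unadjusted p of 0.05, and 0 in DESeq2 and limma-voom). The 8 include UAP1L1, named for its likeness to UAP1, and no role of it in breakdown or recycling is claimed here. NAGLU, a lysosomal enzyme that removes N-acetylglucosamine from heparan sulfate, had 103.9, 86.8 and 96.7 CPM in controls and 68.0, 60.3 and 51.0 CPM in the knockdown. The groups were far apart, and NAGLU fell by 0.68 on the log2 scale (SE 0.11, adjusted p = 9.30e-04, edgeR). AMDHD2, the deacetylase that returns N-acetylglucosamine-6-phosphate to glucosamine-6-phosphate, fell by 0.47 on the log2 scale, from 41.3 ± 4.27 to 29.7 ± 4.55 CPM (adjusted p = 0.014, edgeR). HEXA, a subunit of lysosomal hexosaminidase, fell from 198.4 ± 10.3 to 165.2 ± 2.32 CPM (-0.26). RENBP, an epimerase of N-acetylglucosamine, fell from 13.7 ± 1.35 to 9.64 ± 2.46 CPM (-0.51), although its libraries overlapped between the groups. GNPDA1, GNPDA2 and UAP1L1 did not pass, at 0.18, 0.22 and 0.14. With the GC and length correction NAGLU passed at a smaller change (-0.33), while AMDHD2 (-0.13) and RENBP (-0.24) did not pass. AMDHD2 (-0.47 to -0.39) and HEXA (-0.28 to -0.22) were also lost when control replicate 1 or 3, or knockdown replicate 2, was left out, and RENBP (-0.58 to -0.38) without any 1 library other than knockdown replicate 1 or with rows of a symbol kept apart (-0.51).

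On the supply side, GPI, which makes the fructose-6-phosphate that GFPT uses, had 416.0, 399.2 and 435.5 CPM in controls and 608.6, 587.2 and 497.0 CPM in the knockdown. It rose by 0.44 on the log2 scale (SE 0.080, adjusted p = 0.0024, edgeR), with its 3 rows in the table summed. The hexokinase genes HK1 (0.16) and HK2 (0.094) did not pass. SLC35A3, which carries UDP-GlcNAc into the Golgi, rose from 25.99 ± 1.24 to 32.1 ± 2.75 CPM (0.31, adjusted p = 0.036, edgeR). The transporter genes SLC35D2 and SLC35B4 did not pass, at 0.12 and 0.085. SLC35A3 was lost with the GC and length correction (0.19), with rows kept apart (0.31, adjusted p = 0.051, edgeR) and without any 1 library other than knockdown replicate 1 (0.25 to 0.35).

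Of the 6 sialic acid genes 0 passed in edgeR's test, where 26.1% of all tested genes passed. In limma-voom 0 passed, and in DESeq2 1 was lower. At an unadjusted p of 0.05 in edgeR, for which no share of all genes is given, 1 was higher and 1 lower. The most abundant, GNE, which starts sialic acid synthesis from UDP-GlcNAc, had 67.6 ± 1.06 CPM in controls and 57.6 ± 4.11 CPM in the knockdown (-0.23, adjusted p = 0.052, edgeR). GNE passed as lower with the GC and length correction (-0.30), DESeq2 (-0.23), the stricter filter (-0.23), the replicate block (-0.23) and without knockdown replicate 3 (-0.27).

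Among the users of UDP-GlcNAc in the secretory pathway, genes went both ways. DPAGT1, which starts the lipid-linked N-glycan precursor, fell from 85.9 ± 5.12 to 65.9 ± 13.9 CPM (-0.38), and MGAT1, which adds the first branch to N-glycans, from 86.1 ± 3.97 to 65.6 ± 7.98 CPM (-0.39). They were 2 lower of 8 tested in the N-glycan list (25%, beside 13.1% of all tested genes). EXTL3, which starts heparan sulfate chains, fell by 0.31 on the log2 scale, 1 lower of 6 (16.7%) in the list of hyaluronan and heparan sulfate genes. In the list of other transferases 2 of 9 fell (22.2%), POMGNT1 of O-mannose glycans (-0.41) and EOGT (-0.34), which places O-GlcNAc on secreted and membrane proteins in the endoplasmic reticulum. With the GC and length correction DPAGT1 (-0.19), MGAT1 (-0.26), EXTL3 (-0.17) and POMGNT1 (-0.26) passed at smaller changes, and EOGT (-0.44) at a larger one.

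The 2 of that list that rose (22.2%, beside 13.0% of all tested genes) were GCNT1 and MFNG. MFNG, a fringe enzyme that extends O-fucose on Notch receptors with N-acetylglucosamine, had 0.754, 1.11 and 1.07 CPM in controls and 6.37, 4.80 and 3.604 CPM in the knockdown. With a log2 fold change of 2.33 (edgeR adjusted p = 1.26e-04, SE 0.27) its change was the largest among the related genes, at a low level. GCNT1, which branches mucin-type O-glycans, rose from 9.14 ± 1.09 to 15.5 ± 0.825 CPM (0.76, adjusted p = 9.99e-04, edgeR). In both genes the knockdown libraries lay above all controls. Some of the lower calls were lost with 1 library left out, and the cause was not tested. Without control replicate 1 or 3, MGAT1 (-0.37 and -0.37) did not pass, nor did EXTL3 (-0.27 and -0.31) or EOGT (-0.38 and -0.36). In these 2 fits the genes called lower over all tested genes also went from 2048 to 1053 and 1069. Without knockdown replicate 2 EXTL3 (-0.24) and EOGT (-0.33), without control replicate 2 EOGT (-0.27), and without any 1 library other than knockdown replicate 1 DPAGT1 (-0.40 to -0.26) did not pass. DPAGT1 was also lost with rows of a symbol kept apart (-0.38, adjusted p = 0.072, edgeR).

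Of 8 partners of OGT, 1 rose and 1 fell, 25% of the list, close to the 26.1% of all tested genes that passed. TET1, a dioxygenase that oxidises methylated cytosine and binds OGT, had 5.80, 5.06 and 5.42 CPM in controls and 8.93, 8.00 and 9.01 CPM in the knockdown, without overlap (0.67, SE 0.14, adjusted p = 0.0049, edgeR). Its more abundant paralogs TET2 (0.14) and TET3 (-0.29) did not pass, and for TET3 every knockdown library lay below every control. BAP1, a deubiquitinase found in complexes with OGT, fell from 154.1 ± 8.02 to 126.7 ± 13.4 CPM (-0.28, adjusted p = 0.031, edgeR). HCFC1, whose protein OGT cleaves, had a log2 fold change of -0.088 and did not pass. BAP1 was at -0.028 and did not pass with the GC and length correction, nor when any of 3 libraries was left out, namely control replicate 1 (-0.25), control replicate 3 (-0.27) and knockdown replicate 2 (-0.23).

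XBP1 encodes a transcription factor of the unfolded protein response whose spliced form is known to activate hexosamine pathway genes. It had 106.0, 118.3 and 109.4 CPM in controls and 66.1, 69.6 and 69.1 CPM in the knockdown, opposite in direction to GFPT1 and without overlap between groups. XBP1 fell by 0.70 on the log2 scale (SE 0.074, adjusted p = 5.25e-05, edgeR), and gene counts do not tell its spliced from its unspliced form. The other 3 genes of this list did not pass, with ERN1 (the enzyme that splices XBP1) at 0.048 and the targets DNAJB9 at 0.019 and EDEM1 at -0.021.

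**Figure D4:**
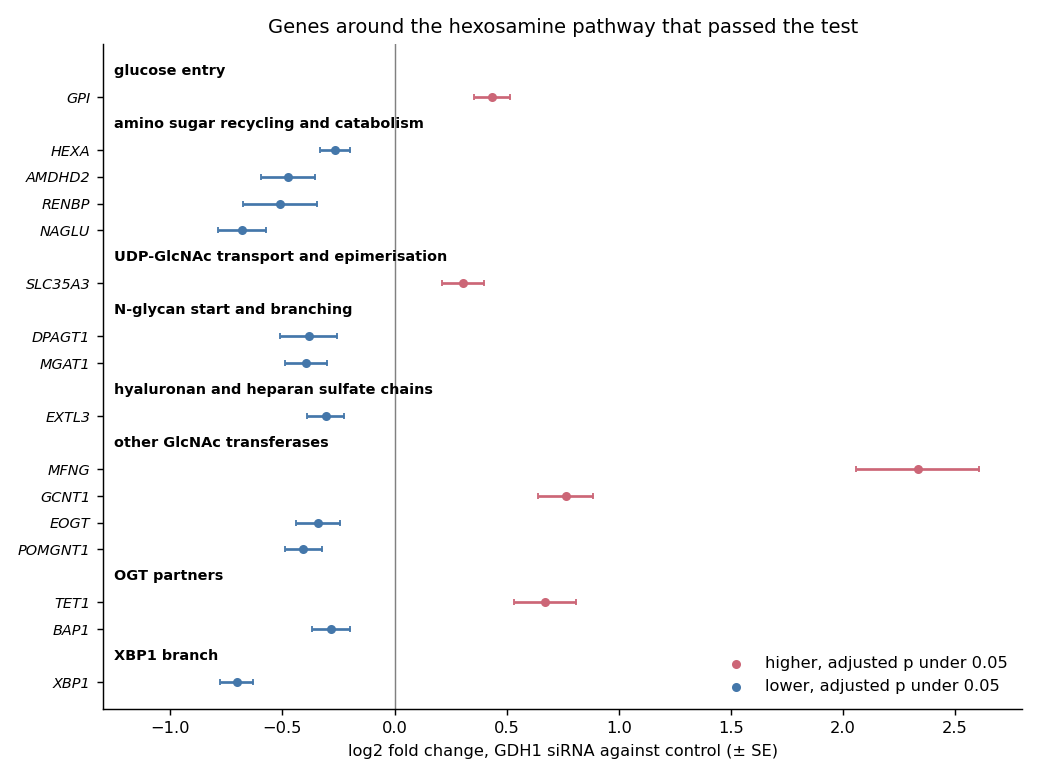
Log2 fold change of GDH1 siRNA against control (horizontal axis, points with SE bars) for the related genes that passed an adjusted p of 0.05, grouped by function, with red for higher and blue for lower. The tested genes that did not pass are not drawn, and the 5 higher and 11 lower genes spread over 8 of the 9 lists, and MFNG stands farthest from 0 at 2.33.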

How the data were processed

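The deposited table gives whole-number counts per gene row for all 6 libraries, and the values show no normalization. Per the submitters' processing notes the genome build was GRCh38.p14. No source used here names the aligner, the counting tool or the strand setting. Groups came from the genotype labels and replicate numbers from the titles. The design calls the libraries biological replicates.

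Rows of one symbol were summed over the whole table (1634 symbols had several rows), and unnamed new loci (1.20 to 1.30% of the counts of a library) stayed in totals and tests. Low genes were removed with filterByExpr, scaling used trimmed means of M values (TMM), and the test was that of edgeR 4.0.16 in R 4.3.3 (glmQLFit with robust fitting, glmQLFTest, two-sided) with Benjamini-Hochberg adjustment over 15638 genes at 0.05. SE was taken as log2 fold change over the root of F. Log2 CPM used a prior count of 2. The precision of each value follows from 3 libraries per group and totals of 31201100 to 35619614 counts. Scripts were tested on simulated data.

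GC content and length came from the longest protein-coding transcript of GENCODE (82.8% of tested genes). The correction used a loess surface (span 0.5) per library as an offset. Promoter windows were RefSeq's, with the start at the outer end of the gene where several are annotated. Alternatives were relative log expression and upper quartile scaling, no filter or 1 CPM in 3 libraries, DESeq2 1.42.0, limma-voom 3.58.1, rows kept apart, the replicate number as a block, the GC and length correction, both together, and leaving out each library. The 8 genes, the lists and the tests were chosen with earlier results of these data known. Named were GLUD1, the 8 genes, every listed gene that passed, the most abundant member of a list where none did, the nearest profiles of GFPT1, GFPT2, OGT and OGA, and marker genes. Further genes named to complete a list or as context were chosen after their values were seen. A few listed genes are not reported by name here.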

Additional observations from a re-analysis of the deposited data

How the results depend on the processing

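GFPT2, PGM3, UAP1, GPI, NAGLU, POMGNT1, GCNT1, MFNG, TET1, XBP1 and GLUD1 kept their direction and their call under all 16 alternatives, although NAGLU (-0.33) and POMGNT1 (-0.26) were over 1.5 times smaller with the GC and length correction. With 1 library left out, genes called higher ranged from 1161 to 2978 and lower from 1053 to 3258, the 8 enzyme genes called higher from 3 to 5 and lower from 0 to 0, and related genes called higher from 4 to 11 and lower from 3 to 14. With the GC and length correction, with or without the replicate block, 1 enzyme gene (OGT) was lower, 12 related genes were higher, and GNPNAT1 turned to -0.050 in both fits. Among all tested genes both fits gave 3001 higher, with 2387 lower without the block and 2431 lower with it. With 1 library left out NAGK ranged from -0.070 to 0.16, CFLAR from -0.10 to 0.0038 and GPBP1L1 from -0.091 to 0.022, each turning sign without knockdown replicate 1 and none passing there. The cause was not tested. The replicate block alone gave 2269 genes higher and 2522 lower, 5 enzyme genes higher and 0 lower, and 6 related genes higher and 14 lower. Libraries with the same number did not all deviate together (correlations across 10554 genes of 0.40, 0.11 and -0.11 for numbers 1, 2 and 3). Differently numbered libraries ranged from -0.50 (control 2 with knockdown 1) to 0.49 (control 2 with knockdown 3). The numbers were therefore not taken as pairs. Keeping the rows of a symbol apart gave 1779 rows higher and 1675 lower of 16598, and ended the calls of RENBP, SLC35A3 and DPAGT1. GFPT2, at 203 to 456 counts, and MFNG, at 26 to 222, rested on few reads, and 3 libraries per group limit calls on small changes.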
